A study of Mus musculus with 8 samples.

Results

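The CC chemokines described here are 10 genes of the family, chosen by name: Ccl2, Ccl3, Ccl4, Ccl6, Ccl7, Ccl9, Ccl12, Ccl17, Ccl22 and Ccl24. Of the 10, 9 have a row among the 13676 genes of the authors' deposited table for PBS and 10 among the 14193 genes of the table for IL-4. Ccl17 has no row with PBS, where the lowest base mean given for any gene is 2.14. Their choice by name used no measured value as a criterion, though earlier results of these data were known when it was made.

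RNA was sequenced from macrophages grown out of the bone marrow of female mice 12 weeks old, either wild type (WT) or labelled as knocked out for NIK, the NF-κB-inducing kinase encoded by Map3k14. All 4 groups shared their culture. Marrow cells spent 7 days in medium with 30% supernatant of L929 fibroblasts, which supplies the growth factor M-CSF, and were replated with 5% of it. Cells then received PBS or 20 ng/mL of interleukin 4 (IL-4), the cytokine of alternative activation, for 6 hours, with 2 libraries in each of the groups WT with PBS, NIK KO with PBS, WT with IL-4 and NIK KO with IL-4. The study asks how NIK shapes the inflammatory state and differentiation of innate immune cells, and the chemokines are part of what such cells secrete. What part of the NIK gene was removed, and whether the knockout was limited to a cell type, was not given in the sources used here.

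CC chemokines are small secreted proteins named for a pair of adjacent cysteines near the amino terminus. They bind receptors of the CCR group on leukocytes, become fixed to sulphated sugar chains on cell surfaces and matrix, and guide cells along the gradient. In macrophages many of them are induced by NF-κB, the transcription factor family that NIK feeds through its noncanonical branch, while Ccl17, Ccl22 and Ccl24 are classic products of IL-4 signalling through STAT6.

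Each table gives 1 base mean, 1 fold change and 1 standard error per gene, so no value per library can be shown. The base mean is the average over 4 libraries of counts divided by size factors (normalized counts). Base mean and fold change together give back the mean of each genotype, over 2 libraries. Fold changes are log2 of NIK KO over WT, followed by ± the standard error, with 2 libraries on each side. A gene was called at an adjusted p under 0.05 by DESeq2 as the authors ran it. The labels give 4 numbers, each shared by 1 PBS and 1 IL-4 library of the same genotype. They do not say more of the libraries' independence, so the p-values measure the spread between these libraries.

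The direction of every genotype comparison needs a caution. In the libraries labelled NIK KO the count of Map3k14 itself was the higher. With IL-4 it was called (0.99 ± 0.22, normalized counts of 418 for WT against 832, DESeq2 adjusted p = 0.00782), and with PBS it stood at 1.09 ± 0.28 (425 and 902, DESeq2 adjusted p = 0.176), both in the authors' deposited tables. Were the tables' direction the reverse, every sign below would turn.

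Macrophage markers, 7 of 7, were measured in both tables, with Lyz2 at the highest base mean, 517389 with PBS. Of 6 eosinophil markers, 0 had a row in either table. Dendritic cell markers, 8 of 8 with a row and mostly Itgax, summed to 378 normalized counts in WT and 375 in NIK KO with PBS, and to 1929 and 1876 with IL-4. Fibroblast and stroma markers summed to 105 in WT and 92.6 in NIK KO with PBS, and to 416 and 136 with IL-4. With IL-4 the libraries labelled NIK KO had the lower value for 7 of 7. Of these 1, Col3a1, was called, beside 0.125% of all genes with an adjusted p. Erythroid markers summed to 89.1 and 102 with PBS and to 341 and 154 with IL-4. The part of these cells in the chemokine values was not tested. In bulk RNA, fewer cells of a type and less RNA per cell cannot be told apart.

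Promoter sequence is shown first for 4 members: those whose window held a match to the patterns below, and Ccl3 as an example without one. RefSeq's promoter table (GRCm38.p6, which is not the GRCm39 build of the authors' notes) matched 6 of the 10 members. The 250 bases before the annotated start are given 5′ to 3′ on the gene's strand, with position -1 next to the start. Capitals mark matches to a STAT palindrome (TTCNNNNGAA or TTCNNNGAA) or to a κB-like sequence (GGGANNNNCC or GGGGNNNNCC), searched on both strands. Ccl17 and Ccl22 lie near each other on chromosome 8, and Ccl3 and Ccl9 lie in the cluster on chromosome 11.
Ccl17, chr8:94810203-94810452, plus strand: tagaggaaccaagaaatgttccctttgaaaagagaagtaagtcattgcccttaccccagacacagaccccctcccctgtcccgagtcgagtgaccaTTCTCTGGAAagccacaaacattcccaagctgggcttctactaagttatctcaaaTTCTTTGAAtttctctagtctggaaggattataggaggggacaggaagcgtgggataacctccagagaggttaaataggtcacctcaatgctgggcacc
Ccl22, chr8:94745434-94745683, plus strand: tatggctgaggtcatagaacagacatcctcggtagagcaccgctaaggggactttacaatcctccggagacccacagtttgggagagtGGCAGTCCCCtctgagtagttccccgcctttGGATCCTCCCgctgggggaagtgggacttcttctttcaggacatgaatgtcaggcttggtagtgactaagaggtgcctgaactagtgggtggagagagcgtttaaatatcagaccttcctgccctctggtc
Ccl9, chr11:83578637-83578886, minus strand: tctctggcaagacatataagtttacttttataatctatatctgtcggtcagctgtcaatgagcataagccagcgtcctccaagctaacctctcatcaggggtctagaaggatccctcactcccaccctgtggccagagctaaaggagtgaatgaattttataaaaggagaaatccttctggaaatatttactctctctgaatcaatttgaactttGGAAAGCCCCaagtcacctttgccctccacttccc
Ccl3, chr11:83649379-83649628, minus strand: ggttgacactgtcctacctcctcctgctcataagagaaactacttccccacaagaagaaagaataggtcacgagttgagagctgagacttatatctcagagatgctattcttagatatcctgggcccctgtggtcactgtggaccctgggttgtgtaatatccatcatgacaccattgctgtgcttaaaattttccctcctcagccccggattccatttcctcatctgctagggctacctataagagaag

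Of these windows, Ccl17's alone among the 6 members held STAT palindromes, TTCTCTGGAA from -154 to -145 and TTCTTTGAA from -99 to -91. Ccl22 held a pair of κB-like matches on the minus strand, printed as GGCAGTCCCC from -162 to -153 and GGATCCTCCC from -131 to -122. Ccl9 held 1 such match, GGAAAGCCCC from -35 to -26. The windows of Ccl3, Ccl6 and Ccl12 held none of the 4 patterns. Over 32851 promoter windows of the same length, 5.85% held TTCNNNNGAA, 7.02% TTCNNNGAA, 17.6% GGGANNNNCC and 16.3% GGGGNNNNCC. A palindrome reads the same on both strands and was counted once, and the κB-like patterns may overlap each other. A match is a run of letters and not a measured binding site, and a window without one says only that these letters are not in it.

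The members spanned a wide range of levels, and Ccl9 stood above all others in every group. Ccl9, a ligand of CCR1 also called MIP-1γ, had a base mean of 21186 with PBS, rank 44 of 13676 genes, and 27208 with IL-4, rank 38 of 14193, in the authors' deposited tables. Ccl6, its neighbour in the cluster and also a CCR1 ligand, ranked 1102 with PBS and 1347 with IL-4. At the other end, Ccl24, the eosinophil-recruiting chemokine eotaxin-2, had a base mean of 5.00 with PBS, above that of 7.18% of genes.

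**Figure D1:**
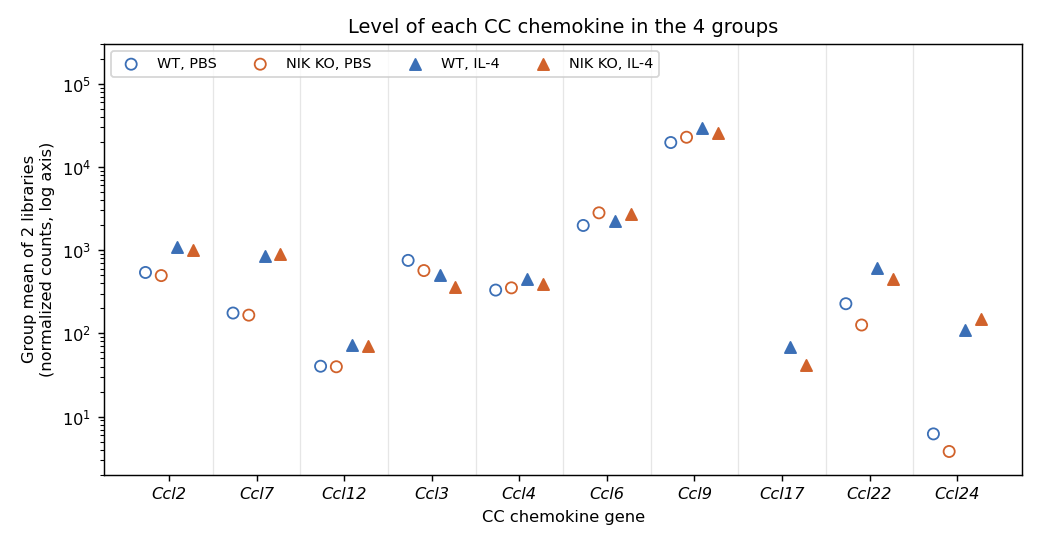
Group means of 2 libraries for each CC chemokine, in normalized counts on a log axis, for WT (blue) and NIK KO (orange) with PBS (open circles) or IL-4 (filled triangles), from the authors' deposited tables. Ccl9 lies between 19640 and 28996 in all 4 groups, Ccl24 moves from under 10 with PBS to over 100 with IL-4, and Ccl17 has no PBS value.

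Levels of different genes were compared per kilobase of the longest protein-coding transcript. In WT with PBS, normalized counts per kilobase were 6534 for Ccl9, 1375 for Ccl6, 984 for Ccl3, 663 for Ccl2, 502 for Ccl4, 219 for Ccl7, 103 for Ccl22, 75.1 for Ccl12 and 4.79 for Ccl24. Between neighbours in that order, Ccl9 over Ccl6, Ccl4 over Ccl7, Ccl7 over Ccl22 and Ccl12 over Ccl24 differed by more than an approximate 95% interval made from the standard errors. That interval takes the errors of the 2 genes as independent, although both were measured in the same libraries. Ccl6, Ccl3, Ccl2 and Ccl4 followed each other within that error, as did Ccl22 and Ccl12. NIK KO libraries with PBS gave the same order except that Ccl12 (74.0) stood above Ccl22 (56.9), within error. With IL-4 the WT order was Ccl9 (9646), Ccl6 (1569), Ccl2 (1348), Ccl7 (1073), Ccl4 (675), Ccl3 (652), Ccl22 (274), Ccl12 (135), Ccl17 (133) and Ccl24 (85.9). NIK KO libraries with IL-4 gave the same order down to Ccl12 (130), followed by Ccl24 (116) and Ccl17 (80.6). In the 2 groups with IL-4, Ccl9 over Ccl6 was the 1 step between neighbours beyond error. Sequence shared with other genes was small. Of the 31-base words of the longest transcript, 3.80% in Ccl9, 1.28% in Ccl6 and 0.08% in Ccl24 also occur in another gene's transcripts, and 0% in the other 7 members.

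Genotype called none of the chemokines under either treatment. With PBS, 0 of 9 were called, against a background of 5 of 13676 genes (0.0366%), and 0 had an unadjusted p under 0.05, against 1.24% of all genes. With IL-4, 0 of 10 were called, against 17 of the 13642 genes with an adjusted p (0.125%), and 0 had an unadjusted p under 0.05, against 2.95%. The DESeq2 adjusted p of every member was 1.00 in both tables. With PBS the libraries labelled NIK KO had 3 members higher and 6 lower, with a median of -0.08 on the log2 scale beside -0.01 over all genes. With IL-4 the split was 3 higher and 7 lower, with a median of -0.16 beside -0.01. These calls do not show that the levels were alike, and the 95% intervals below show how wide a range goes with each estimate.

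**Figure D2:**
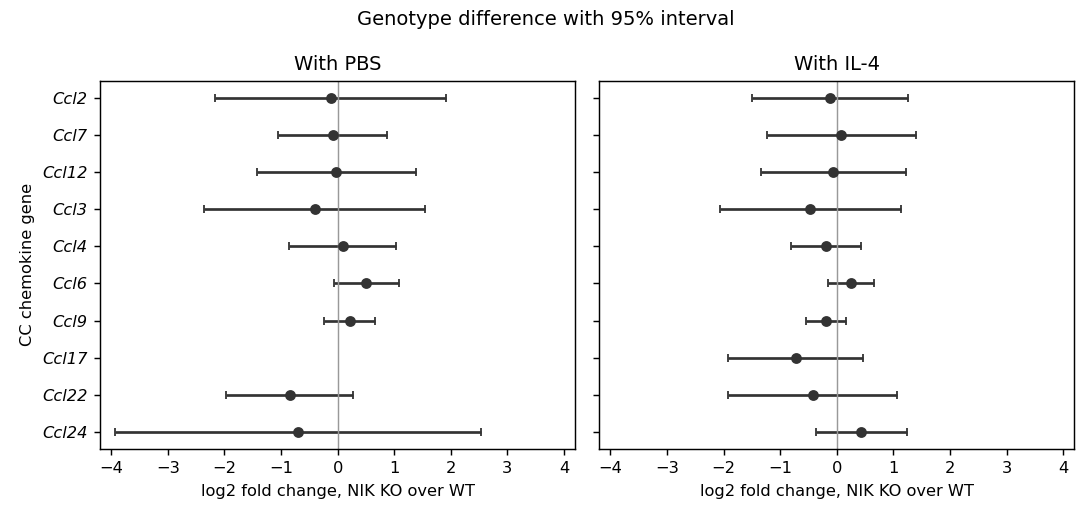
Log2 fold change of NIK KO over WT for each CC chemokine with PBS (left) and IL-4 (right), with the 95% interval as bars, from the authors' deposited tables. Every interval crosses 0, those of Ccl6 and Ccl9 are short, and those of Ccl2 and Ccl3 reach more than 1 log2 unit to either side.

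The CCR2 ligands Ccl2, Ccl7 and Ccl12 draw monocytes out of the marrow and into tissue. Ccl2 (MCP-1) had 539 normalized counts in WT and 495 in NIK KO with PBS, a difference of -0.12 ± 1.04 in the authors' deposited table (95% interval -2.16 to 1.91, the authors' DESeq2 p = 0.905). With IL-4 it had 1096 and 1006, a difference of -0.12 ± 0.70 (-1.51 to 1.26, the authors' DESeq2 p = 0.860). The estimates are near 0 in both tables, yet the PBS interval runs from 0.224 to 3.77 times the WT level. Ccl7 (MCP-3) had 176 and 166 with PBS (-0.08 ± 0.49, -1.05 to 0.88) and 859 and 909 with IL-4 (0.08 ± 0.67, -1.23 to 1.39). Ccl12 (MCP-5) was the lowest of the 3, with 40.3 and 39.7 with PBS (-0.02 ± 0.71) and 72.7 and 69.8 with IL-4 (-0.06 ± 0.65).

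Ccl3 and Ccl4, the inflammatory proteins MIP-1α and MIP-1β, recruit monocytes and T cells, and Ccl3 acts in part through CCR1. Ccl3 had 753 normalized counts in WT and 569 in NIK KO with PBS, a difference of -0.41 ± 1.00 in the authors' deposited table (-2.36 to 1.55, the authors' DESeq2 p = 0.684). With IL-4 it had 499 and 361, a difference of -0.47 ± 0.81 (-2.06 to 1.13, the authors' DESeq2 p = 0.566). Ccl4, which lies beside Ccl3 in the genome, had 331 and 352 with PBS (0.09 ± 0.48, -0.85 to 1.03) and 446 and 390 with IL-4 (-0.19 ± 0.31, -0.80 to 0.42). The standard error of Ccl3 was thus over 2 times that of Ccl4 in each table.

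The CCR1 ligands Ccl6 and Ccl9, which mouse macrophages make without stimulation, were the most precisely measured members. Ccl6 had the smallest p of the family in each table. It had 1980 normalized counts in WT and 2808 in NIK KO with PBS, a difference of 0.50 ± 0.29 in the authors' deposited table (-0.07 to 1.08, the authors' DESeq2 p = 0.0852, adjusted p = 1.00). With IL-4 it had 2259 and 2699, a difference of 0.26 ± 0.21 (-0.15 to 0.66, the authors' DESeq2 p = 0.216). Its interval leaves room for no more than a 2.11-fold higher level with PBS and a 1.58-fold higher level with IL-4. Ccl9 had 19640 and 22732 with PBS (0.21 ± 0.23, -0.25 to 0.67, the authors' DESeq2 p = 0.365) and 28996 and 25421 with IL-4 (-0.19 ± 0.18, -0.55 to 0.17, the authors' DESeq2 p = 0.296). For this most abundant member the intervals run from 0.844 to 1.59 times WT with PBS and from 0.685 to 1.12 times with IL-4.

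Ccl17 and Ccl22, both ligands of CCR4 that attract T helper type 2 and regulatory T cells, stood lower in the libraries labelled NIK KO wherever they were measured. Neither passed the test. Ccl22 had 227 normalized counts in WT and 126 in NIK KO with PBS, a difference of -0.85 ± 0.58 in the authors' deposited table (-1.98 to 0.28, the authors' DESeq2 p = 0.140). With IL-4 it had 606 and 450, a difference of -0.43 ± 0.77 (-1.93 to 1.07, the authors' DESeq2 p = 0.576). Ccl17 had 68.6 and 41.4 with IL-4, a difference of -0.73 ± 0.61 (-1.92 to 0.46, the authors' DESeq2 p = 0.231). Ccl24, which acts on CCR3, went the other way with IL-4, with 111 and 150 normalized counts (0.44 ± 0.41, -0.37 to 1.24, the authors' DESeq2 p = 0.290). With PBS Ccl24 had 6.20 and 3.81, and its interval runs from -3.94 to 2.53, the widest of any member.

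The precision of the genotype comparison differed widely between members. Each standard error was set against those of all genes whose base mean lay within 1.5-fold. With PBS, that of Ccl2 was 3.54 times its neighbours' median and above 99.7% of 2728 genes, and that of Ccl3 was 3.52 times and above 99.5% of 2664. With IL-4 the standard errors of Ccl2, Ccl3, Ccl22 and Ccl7 were 3.55, 3.32, 3.31 and 3.26 times their neighbours' medians. Ccl9 sat among its neighbours (above 25.0% with PBS and 77.2% with IL-4), and Ccl6 was above 86.8% and 92.2% of its own. Expressed as a spread between libraries of a group, the standard error of Ccl2 with PBS corresponds to a coefficient of variation of 71.9%, that of Ccl9 to 16.1%. These figures are computed back from the standard error of the authors' DESeq2 fit and are not spreads measured from values per library.

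**Figure D3:**
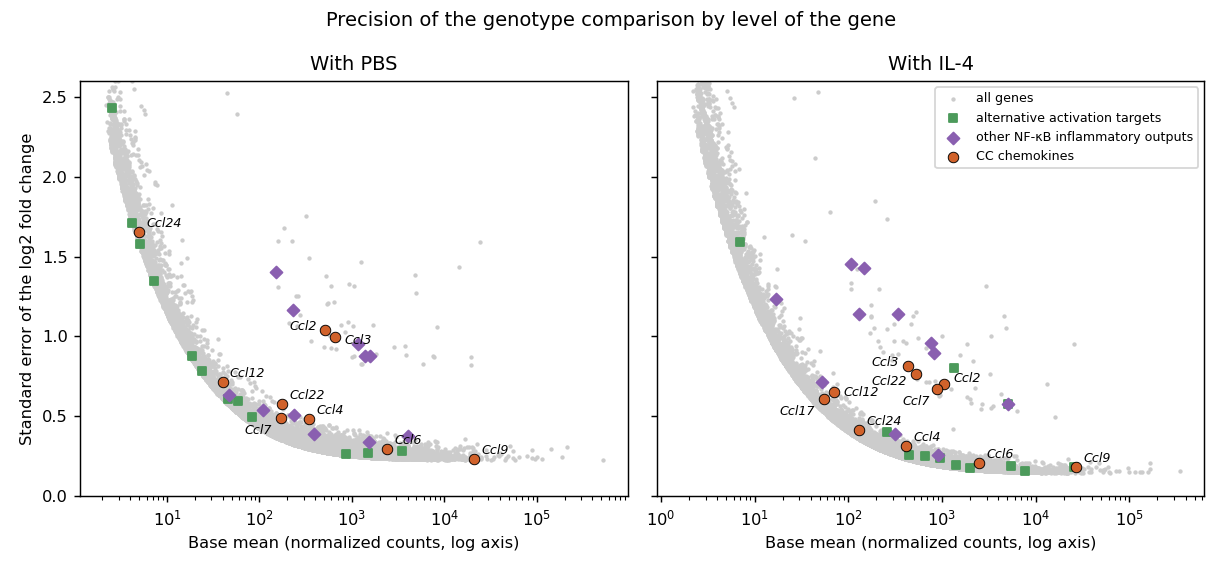
Standard error of the log2 fold change against base mean (log axis) for every gene (grey) with PBS (left) and IL-4 (right), with the CC chemokines (orange circles), other NF-κB inflammatory outputs (purple diamonds) and alternative activation targets (green squares), from the authors' deposited tables. Ccl2 and Ccl3 stand far above the band of genes of like level in both panels, with Ccl7 and Ccl22 beside them with IL-4, while Ccl6 and Ccl9 lie in the band. The axis ends at 2.6, beyond which lie 68 genes with PBS and 98 with IL-4.

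Counted over members of base mean 100 or more, 5 of 7 with PBS had a standard error above 95% of genes of like level (Ccl2, Ccl3, Ccl4, Ccl7 and Ccl22), where 4.39% of all 9266 such genes did. With IL-4 the same 5 did among 8 members, where 4.01% of 9513 genes did. Other inflammatory outputs of NF-κB shared this width, with 10 of 10 genes at that base mean with PBS and 9 of 9 with IL-4, among them Cxcl2, which draws neutrophils, at -0.71 ± 0.95 with PBS and -0.86 ± 0.96 with IL-4 in the authors' deposited tables. Of the alternative activation targets, 0 of 3 with PBS and 3 of 11 with IL-4 did. Of the IL-4 receptor and STAT6 axis, 1 of 12 and 2 of 15 did. The smallest absolute Wald statistic that was called was 4.46 with PBS and 4.06 with IL-4. At their standard errors, Ccl2 and Ccl3 would have needed a 24.9-fold and a 21.7-fold change to reach it with PBS, and Ccl9 a 2.05-fold change. With IL-4 the fold needed ran from 1.67 for Ccl9 to 9.85 for Ccl3. Which of the libraries set the wide errors cannot be read from the tables.

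The level with IL-4 against PBS was then taken for each member. The PBS and IL-4 tables were normalized apart, so levels across them carry no test, and no member's fold was tested against another's. The median gene of base mean 100 or more stood 1.20-fold higher in the IL-4 table in WT and 1.21-fold in NIK KO (9148 genes), and the folds below are relative to it. Ccl24 stood 14.9-fold higher with IL-4 in WT and 32.6-fold in NIK KO, from PBS means of only 6.20 and 3.81. Ccl7 stood 4.07-fold and 4.53-fold higher, above 99.6% of genes in WT. Ccl22 stood 2.22-fold and 2.95-fold higher. As deposited, without that rescaling, the folds were 17.9 and 39.5 for Ccl24, 4.89 and 5.49 for Ccl7 and 2.67 and 3.57 for Ccl22. Ccl2 was at 1.69-fold and 1.68-fold, or 0.76 and 0.75 on the log2 scale, with an approximate error of 0.89. Ccl12 was at 0.59 and 0.54 on the log2 scale, with an approximate error of 0.68. On the same scale the higher members had wide errors too. Ccl7 was at 2.03 and 2.18 with an approximate error of 0.59, Ccl22 at 1.15 and 1.56 with 0.68, and Ccl24 at 3.90 and 5.03 with 1.20.

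The other 4 members had lower folds. Ccl3 was at 0.552 of its PBS level in WT and 0.525 in NIK KO, with an approximate error of 0.91 on the log2 scale. Ccl4 was at 1.12 and 0.914 (0.16 and -0.13 on the log2 scale, approximate error 0.41). Ccl9 was at 1.23 and 0.924 (0.30 and -0.11, approximate error 0.21), the WT value above that of 84.1% of genes. Ccl6 was at 0.950 and 0.794 (-0.07 and -0.33, approximate error 0.25). As deposited, Ccl9 was at 1.48 and 1.12 and Ccl6 at 1.14 and 0.961. In the values as deposited, 7 of 9 members were higher with IL-4 in both genotypes, and 5 of 9 relative to the median gene. Ccl4 and Ccl9 made the difference, since the rescaling put their NIK KO values below 1.

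**Figure D4:**
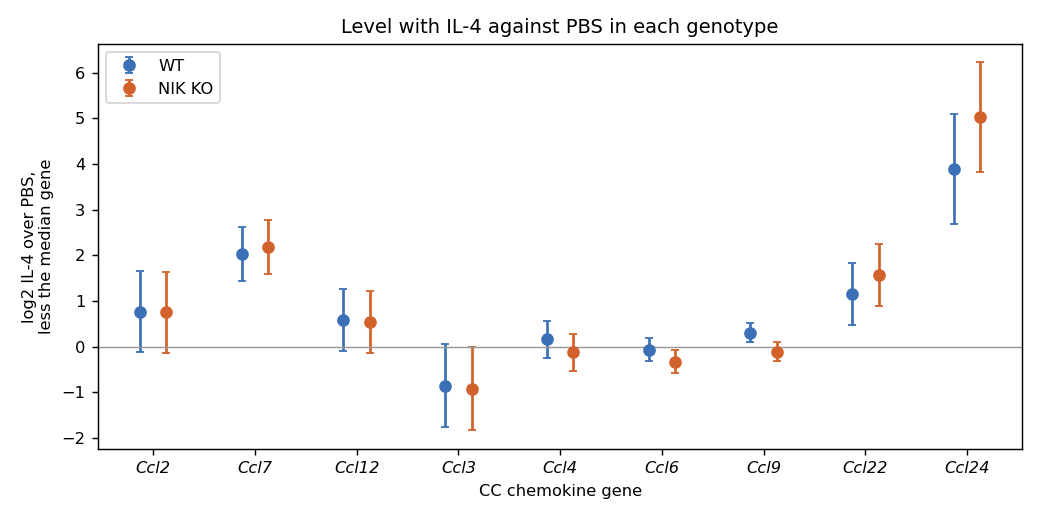
Log2 of the IL-4 level over the PBS level for each CC chemokine in WT (blue) and NIK KO (orange), less the median gene, with an approximate error from the standard errors of the authors' deposited tables as bars. The bars reach 1 approximate error to either side and are no 95% interval. The points of Ccl24, Ccl7 and Ccl22 are the highest in both genotypes, and those of Ccl3 the lowest.

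For scale, the IL-4 target Arg1, the arginine-degrading enzyme arginase 1, stood 223-fold higher with IL-4 in WT and 341-fold in NIK KO relative to the median gene, and Mrc1, the mannose receptor, 14.3-fold and 14.4-fold. Tnf, the inflammatory cytokine, stood at 0.442 and 0.419 of its PBS level and Cxcl10, an interferon-induced chemokine, at 0.210 and 0.170. These 4 genes were picked as familiar landmarks after their values were seen, and they do not stand for their lists. Among the other NF-κB inflammatory outputs, Ptgs2 was at 1.36 and 1.00 and Icam1 at 0.970 and 1.16. Among the alternative activation targets, Tgm2 was at 1.07 and 1.34 and Alox15 at 1.45 and 0.394. Alox15 had few normalized counts, 7.09 with PBS and 12.3 with IL-4 in WT, and 3.18 and 1.52 in NIK KO. Its folds are too uncertain to be read as a rise or a fall. No order between these genes and the chemokines was tested. The folds of Ccl24 and Ccl3 carry approximate errors of 1.20 and 0.91 on the log2 scale, so small gaps to Mrc1 or Tnf cannot be read. The landmarks have errors of their own. With PBS the standard error of the genotype comparison was 0.78 for Arg1, 0.27 for Mrc1, 0.88 for Tnf and 0.87 for Cxcl10.

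Whether the genotype altered the IL-4 response was tested as the difference of the fold changes in the 2 tables, which equals the difference of the IL-4 response between genotypes. Of 9 members 0 were called, beside 2 of 13384 genes (0.0149%), and 0 had an unadjusted p under 0.05, beside 0.867%. The test takes the errors of the 2 tables as independent, although the labels give libraries of both treatments the same numbers. With errors correlated at 0.5, 20 genes were called in place of 2, and still 0 members. Estimates lay above 0 for 4 members and below 0 for 5. The smallest p was 0.175 for Ccl9, whose IL-4 response was -0.40 ± 0.30 in NIK KO against WT (95% interval -0.98 to 0.18, z test on the authors' DESeq2 values with Benjamini-Hochberg adjustment over all genes, adjusted p = 1.00). For Ccl24 the difference was 1.14 ± 1.70 (-2.20 to 4.47), for Ccl22 0.42 ± 0.96, for Ccl6 -0.25 ± 0.36 and for Ccl4 -0.28 ± 0.57. For Ccl2 it was 0.00 ± 1.26.

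Among 15 receptors and decoys of CC chemokines, 9 had a row in each table and 0 were called, beside 0.0366% (PBS) and 0.125% (IL-4) of all genes. With IL-4, 1 had an unadjusted p under 0.05 (2.95% of all genes), Ccr2, which stood higher in the libraries labelled NIK KO. Ccr2, the receptor of Ccl2, Ccl7 and Ccl12, had 936 normalized counts in WT and 1561 in NIK KO with PBS (0.74 ± 0.36, the authors' DESeq2 p = 0.0414) and 842 and 1333 with IL-4 (0.66 ± 0.24, the authors' DESeq2 p = 0.00666, adjusted p = 0.946) in the authors' deposited tables. The CCR2 ligands Ccl2, Ccl7 and Ccl12 lay between -0.12 and 0.08 in both tables, with the wide intervals given above. Of 11 other CC chemokines, 4 had a row with PBS and 5 with IL-4, and 0 were called, beside the same shares of all genes. Ccl5 was the 1 of base mean 100 or more, at -0.01 ± 1.07 with PBS and -0.15 ± 1.13 with IL-4 in the authors' deposited tables.

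The pathway and partner lists that follow gave no call other than Map3k14. The counts that follow stand beside calls for 0.0366% (PBS) and 0.125% (IL-4) of all genes. Each list median stands beside -0.01 over all genes of its table. Of 15 genes of the IL-4 receptor and STAT6 axis, 0 were called in either table, with medians of -0.12 with PBS and 0.04 with IL-4. Of 12 alternative activation targets 0 were called, with 2 at an unadjusted p under 0.05 with IL-4, both lower, where 2.95% of all genes had such a p. These were Fn1, the matrix protein fibronectin, at -0.99 ± 0.40 and Chil3, a chitinase-like protein, at -0.43 ± 0.18 in the authors' deposited table. Of 12 canonical NF-κB subunits and feedback genes 0 were called. Of 8 genes of the noncanonical core, Map3k14 was called with IL-4. Of 11 other inflammatory outputs of NF-κB 0 were called, with 8 lower with PBS (median -0.16) and 9 lower with IL-4 (median -0.32). Of 6 glycosaminoglycan and matrix-binding partners, which include the proteoglycans that hold chemokines, 0 were called.

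Ccl6, the member with the largest absolute Wald statistic with IL-4, was compared with 9117 genes of base mean 100 or more over the 4 group means, each centred on the log2 scale. Tmem164 (distance 0.04), Acbd4 (0.06) and D17Wsu92e (0.08) were nearest. The likeness rests on 4 points and is a description only.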

How the data were processed

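RNA sequencing covered 8 libraries in 4 groups of 2. Per the submitters' processing notes, Salmon 1.4.0, DESeq2 1.32.0 and genome build GRCm39 were used. What each did, with which annotation and filters, was not given in the sources used here. For each treatment the authors deposited, per the file headers, a base mean (a signal, the mean of counts over size factors), a log2 fold change with its standard error on the log2 scale, a Wald statistic (a score) and the p-value with its adjusted p-value. The Wald statistic equals the log2 fold change over its standard error to within rounding. With IL-4, 551 genes, of base mean 3.49 or lower, have no adjusted p and were left so. Depth per library is unknown, and precision is set by the standard error, whose median at base mean 100 or more was 0.30 with PBS and 0.22 with IL-4.

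The IL-4 table's name gave the direction (NIK KO over WT), which was assumed for PBS too. Computed here were genotype means, 95% intervals (normal), ranks of standard errors, and the two-sided z test of the difference between tables, whose errors were taken as independent, adjusted by Benjamini-Hochberg over 13384 genes. The approximate error of an IL-4 over PBS level, added after the data were seen, is the root of the mean of the squared standard errors of the 2 tables. Transcript lengths and shared words came from GENCODE M21 (GRCm38), promoters from RefSeq. Python 3.11.15, numpy 2.4.6, pandas 2.3.3, scipy 1.17.1, statsmodels 0.14.6 and matplotlib 3.10.9 were used. The calling of genes and the z test were tried on simulated fold changes. The conversion of a standard error to a spread was checked only against its own formula.

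Members and gene lists were chosen with earlier results of these data known. Named were all 10 members, of every other list each gene called or otherwise the pair of base mean 100 or more with the largest absolute Wald statistics, and the 3 genes nearest in pattern to the member with the largest absolute Wald statistic with IL-4. Of these, the text gives those that bear on the chemokines. The result for 1 gene is not reported here. Alternatives were other base mean filters, other adjustments, centring, correlated errors and other scalings between the tables.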

Additional observations from a re-analysis of the deposited data

How the results depend on the processing

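The count of called CC chemokines was 0 in each table and in the difference between them under every alternative run. Over all genes with IL-4, 17 calls became 9 among genes of base mean 100 or more and 8 with Benjamini-Yekutieli adjustment. For the difference between treatments, 2 calls became 0 among genes of base mean 100 or more and 20 with errors correlated at 0.5. Centring the fold changes on their median turned the sign of the Ccl2 difference, from 0.00 to -0.0118. Relative to the median gene, the IL-4 over PBS level of Ccl6 moved by more than its approximate error, to -0.07 in WT and -0.33 in NIK KO on the log2 scale, and that of Ccl9 to 0.30 and -0.11. The counts of wide standard errors, 5 with PBS and 6 with IL-4 (Ccl12 included), were 5 and 6 with a narrower window of base mean, which was chosen after seeing the data. No paired analysis was possible because the deposited tables hold no value per library, and for the same reason leaving out each library in turn was not run.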
